A study of Mus musculus with 3 samples.

Results

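Potassium channel genes, defined here as genes whose symbol starts with Kcn, were described across 3 arrays of mouse sarcoma cells. The platform annotation gave 95 probe sets with a single Kcn symbol, which stood for 92 genes of the 19938 genes named on the arrays. Membership went by symbol alone, though the rule was set with earlier results of these data known. The cells come from EWS/ATF1-inducible mice of a mixed C57/BL6, 129 and ICR background, in which doxycycline switches on the fusion of EWSR1 with the transcription factor ATF1. That fusion is the one of human clear cell sarcoma. The array labelled control stands, by its label, for tumor cells cultured without doxycycline (0 microg/ml). The array labelled high doxycycline stands for such cells after 24 h at 0.2 microg/ml. The array labelled tumor stands for RNA taken directly from a soft tissue sarcoma of a mouse that had received doxycycline for 3 months. The control and high doxycycline samples share a number in their labels that differs from that of the tumor, and whether cells and tumor came from the same animal was not stated in the labels. The promoter and the cells that carry the transgene were likewise not stated.

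Potassium channels let potassium ions leave or enter the cell and set its resting voltage. Voltage-gated (Kv) channels open on depolarisation and end action potentials, calcium-activated channels open when calcium rises, inward rectifiers pass potassium near the resting voltage, and two-pore-domain channels carry the background leak. Pore subunits assemble with auxiliary subunits and with silent subunits that form no channel of their own. Most members are best known from neurons and muscle, and many are also described in tumor cells.

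Each group has 1 array, so no difference could be tested, no value has a replicate error, and every fold and count describes these 3 arrays only. The deposited intensities had medians of 250.02, 226.7 and 219.8 over 28856 probe sets on control, on the doxycycline-treated cells and on tumor, respectively. A gene is called bright on an array where its intensity lay above that array's median. Probe sets of different genes differ in their response, so that intensities are compared between arrays and not between genes. As a measure of how far probe sets disagree, log2 differences from several probe sets of 1 gene lay a median of 0.37 apart (high doxycycline and control), 0.38 apart (tumor and control) or 0.055 apart (tumor and high doxycycline). They lay at least 1 apart for 19.9%, 21% and 0.770% of the genes with several bright probe sets. Such probe sets read the same RNA on the same array, so these values do not measure error between arrays, samples or cultures. In the last pair 26.3% of bright genes carried exactly equal values, against 9.21% and 7.73% in the first and second. The part of equal values in the 0.055 was not tested.

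The array labelled control was the one with mostly bright macrophage, vessel and muscle genes. Of 14 macrophage markers 12, 2 and 1 were bright on control, high doxycycline and tumor, with summed intensities of 28249, 2756 and 1705. Of these Cd14 was highest on high doxycycline, with 650, 914 and 158 in that order. The 10 endothelial markers summed to 9914, 1520 and 1433 in that order, with 9, 1 and 1 bright. The 12 skeletal muscle markers summed to 32897, 2190 and 1955, with 12, 4 and 3 bright. The 11 fibroblast and matrix markers summed to 62608, 7392 and 6974, with 11, 8 and 9 bright. Among 11 smooth muscle and pericyte markers 8, 3 and 3 were bright, and the sums were 7771, 2257 and 2071. The lymphocyte and adipocyte markers were mostly dim, with 3 of 8 and 3 of 6 bright on control, 1 and 0 on high doxycycline and 0 and 0 on tumor. The sums of the 13 neuronal markers went the other way, with 9335, 21053 and 23684, and 8, 9 and 10 were bright. Not every member did: Gap43, Elavl4 and Nefm each had 1 value on all arrays. Rbfox3 was highest on control (178, 168 and 168), and Tubb3 was lower on tumor (1163) than on control (1240). Of 10 pigment cell markers 5, 4 and 4 were bright, and tyrosinase (Tyr) stayed at 55.1 on every array. Resected tissue usually holds vessels and blood cells, and cultured tumor cells usually do not. The matrix list, mostly bright on every array, is left out of this reading. Here control showed bright macrophage, endothelial and muscle markers, and tumor showed most of them below its median, so both labels disagree with these genes. All directions below are between arrays named by their labels. For each difference against the array labelled control these marker values moved as well, and their part in the result was not tested. In a mixed sample, fewer cells of a type and less RNA per cell cannot be told apart.

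**Figure D1:**
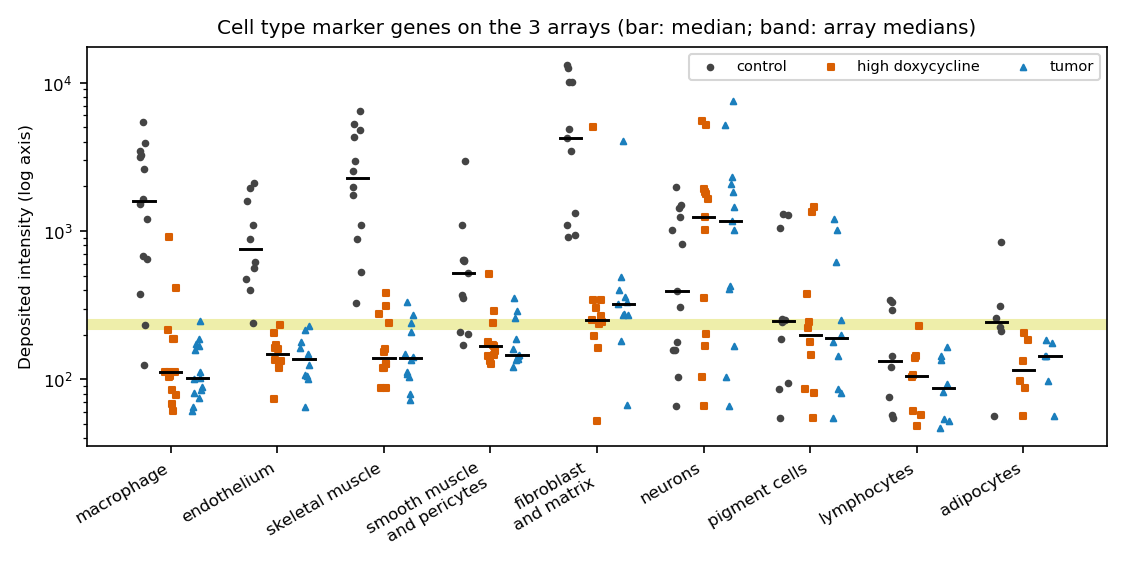
Deposited intensities (log axis) of the marker genes of 9 cell types with circles for control, squares for high doxycycline and triangles for tumor, with the median of each list as a bar and the range of the 3 array medians as a band. Macrophage, endothelial, skeletal muscle and matrix markers are high on control, and neuronal markers have their lowest median there.

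Which Kcn promoters carry sites for CREB-family and AP-1 factors was looked up first, because EWS/ATF1 keeps the DNA-binding part of ATF1 and the series is about its activation of Fos. RefSeq start windows (GRCm38.p6, 250 bases before to 50 after the start) were held for 70 of the 92 genes, 95 windows in all. The full cAMP response element TGACGTCA stood in 0 of the 95, against 1.79% of 32851 windows of all genes. The core site TGACG, which the full element contains, was found on either strand in 17 windows (17.9%, against 20.8% of all). The AP-1 site TGANTCA was found in 4 windows (4.21%, against 7.81%), those of Kcne3, Kcnip3, Kcnip4 and Kcnk2. Of the 13 Kcn genes that differed by at least 2-fold between any arrays, 11 had a window, 14 windows in all. None of these 14 held a full element or an AP-1 site, and 1 held core sites, which says only that the letters are absent from the other windows. The windows below are shown because the first belongs to the gene with the largest increase against the array labelled control, and the others to a pair of overlapping genes that were both dimmer than on that array. Capitals mark the core sites on the opposite strand, of which the first begins 175 and the second 164 bases before the start of Kcnab2.
Kcnab2, chr4:152477500-152477799, minus strand: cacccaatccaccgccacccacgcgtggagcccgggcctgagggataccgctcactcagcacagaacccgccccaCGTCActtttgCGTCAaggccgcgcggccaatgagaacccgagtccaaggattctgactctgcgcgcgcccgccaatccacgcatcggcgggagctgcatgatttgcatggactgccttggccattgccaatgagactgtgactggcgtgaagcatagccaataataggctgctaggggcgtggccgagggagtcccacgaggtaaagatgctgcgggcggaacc
Kcnmb4, chr10:116473474-116473773, minus strand: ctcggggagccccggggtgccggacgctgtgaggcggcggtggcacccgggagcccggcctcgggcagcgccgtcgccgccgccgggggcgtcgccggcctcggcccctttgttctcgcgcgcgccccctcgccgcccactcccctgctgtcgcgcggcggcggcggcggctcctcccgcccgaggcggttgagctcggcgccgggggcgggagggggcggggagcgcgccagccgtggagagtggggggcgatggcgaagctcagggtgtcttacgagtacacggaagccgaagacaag
Kcnmb4os2, chr10:116472913-116473212, plus strand: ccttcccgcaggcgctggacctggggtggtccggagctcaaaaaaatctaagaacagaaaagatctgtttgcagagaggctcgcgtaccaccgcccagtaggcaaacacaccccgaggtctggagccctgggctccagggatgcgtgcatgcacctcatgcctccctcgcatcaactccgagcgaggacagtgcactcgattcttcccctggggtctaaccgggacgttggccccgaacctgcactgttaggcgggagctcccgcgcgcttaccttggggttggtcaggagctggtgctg
The windows of Kcnmb4 and Kcnmb4os2 lie on opposite strands, with starts 360 bases apart and each gene running toward the start of the other. Kcnab2 has 2 further windows in the table, at other starts, and neither held any of these motifs. Which start the cells use was not measured.

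Of the 92 Kcn genes, 35 (38.0%) were bright on the control array, 32 (34.8%) with high doxycycline and 29 (31.5%) on the tumor array, where 55.2%, 55.1% and 55.1% of all genes were. On all 3 arrays 27 were bright and on none 53. The remaining 12 changed side. Kcnc4, Kcnj11, Kcnj15, Kcnk6, Kcnn1 and Kcnq1 were bright on control alone, Kcna1 and Kcna3 on control and high doxycycline, Kcne2 and Kcnh5 on high doxycycline alone, Kcns1 on tumor alone and Kcnq5 on high doxycycline and tumor. Several of these lay close to the median, such as Kcnn1 with 255, 218 and 218. The 53 genes bright on no array enter none of the comparisons, and a dim probe set does not show that a gene is silent.

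**Figure D2:**
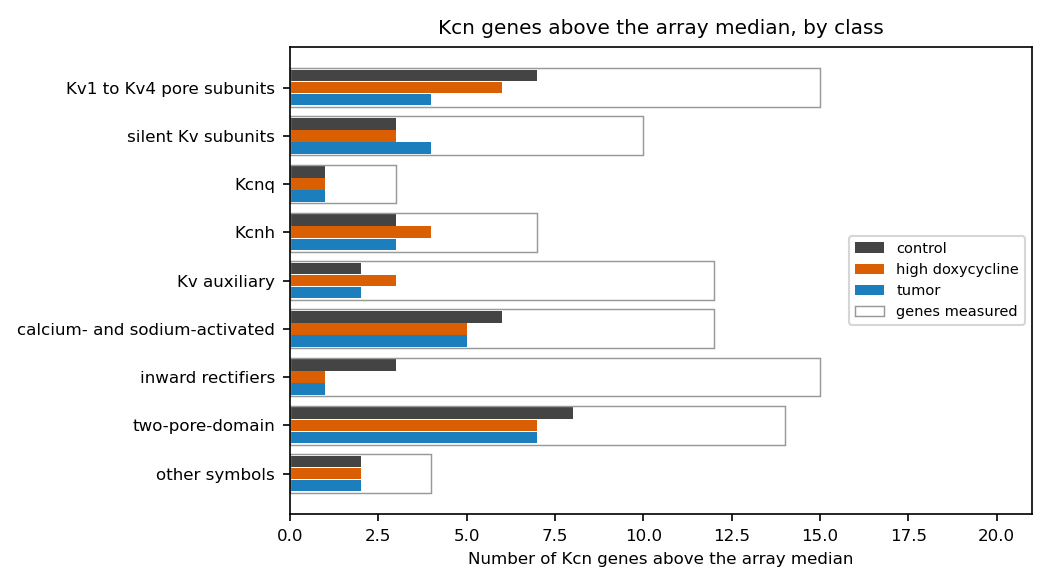
Number of Kcn genes above the array median in each class (bars, 1 per array) inside the number measured (outline). Two-pore-domain channels have 8, 7 and 7 of 14 bright on control, high doxycycline and tumor, and inward rectifiers 3, 1 and 1 of 15.

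Differences are between log2(intensity + 1) values, for genes bright on the brighter array of the pair, and a gene counts as at least 2-fold different where that difference is 1 or more in either direction. From control to high doxycycline, 5 of 38 bright Kcn genes were at least 2-fold brighter (17.5% of 11934 bright genes were) and 4 dimmer (8.46% of all). Their median log2 difference was -0.061, against 0.083 over all bright genes, and with a common median these became 0.080 and 0.22. Both moved alike with the scaling, and the Kcn median was the lower in either case, though not with percentile 75 as the brightness threshold. Between tumor and control, 4 of 37 were brighter (18.6% of 12011) and 6 dimmer (10.2%), with a median of -0.23 against 0.076 over all. Between tumor and high doxycycline, 0 of 33 were brighter (1.6% of 11212) and 3 dimmer (1.94%), with a median of -0.14 against 0 over all. A common median would make these splits 5 and 3, 5 and 5, and 1 and 2. That shift adds 0.14, 0.19 and 0.044 to every difference of these comparisons in turn. As shares of the bright Kcn genes, the counts were 13.2% brighter and 10.53% dimmer, 10.8% and 16.2%, and 0% and 9.09%. The last rests on 3 genes, and none of these shares was tested against that of all genes. Above percentile 75 in place of the median, Kcnk6 and Kcnmb4os2 left both comparisons with control, and Kcnq5 and Kcnj15 that of tumor with control, because they were not bright enough to be counted. Both comparisons with control share that array, so their values are given side by side and not as a mutual check.

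**Figure D3:**
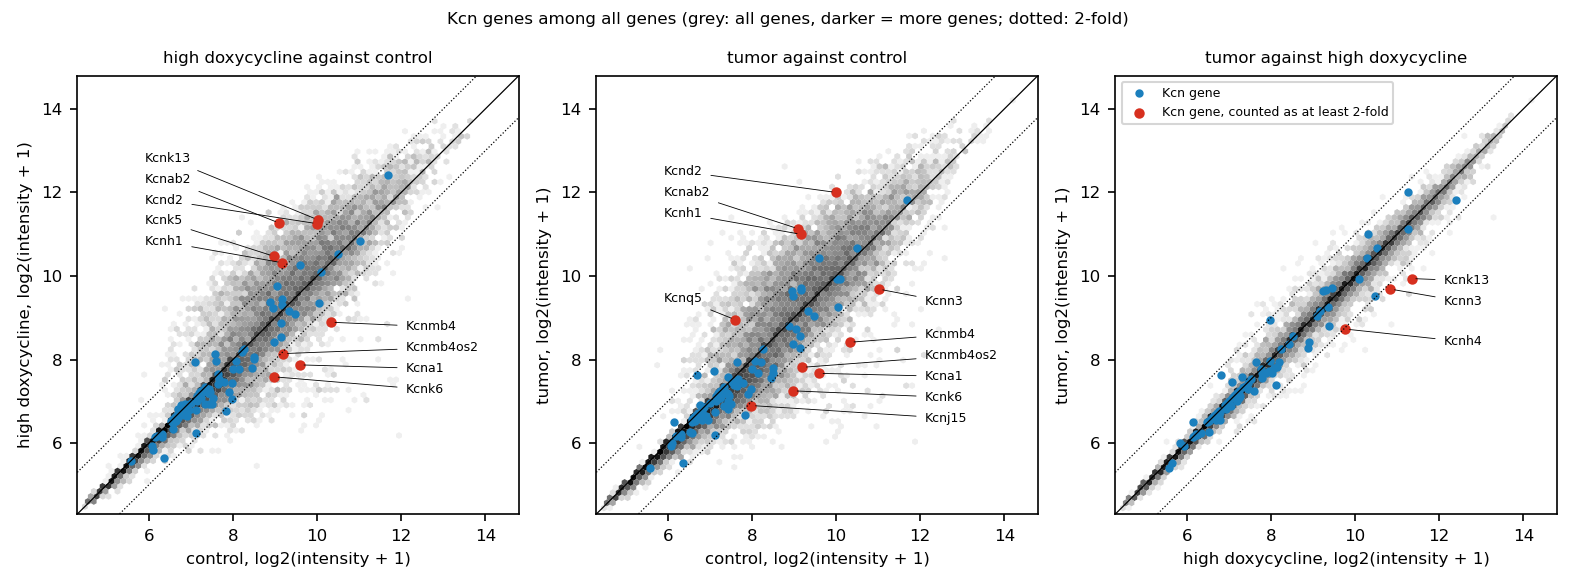
Log2(intensity + 1) of every gene (grey, darker where more genes lie) and of the 92 Kcn genes (blue), 1 panel per pair of arrays, with the line of equality and dotted lines at 2-fold. Kcn genes counted as at least 2-fold different are red and named, 9 in the left panel, 10 in the middle panel and 3 in the right panel.

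Among the pore subunits of the Kv1 to Kv4 families, 7, 6 and 4 of 15 were bright on control, high doxycycline and tumor. Kcnd2, the Kv4.2 subunit of the fast transient A-type current of dendrites, had intensities of 1023 (control), 2439 (high doxycycline) and 4096 (tumor). It was lowest on control and highest on tumor, 2.38-fold and 4.0-fold above control. Quantile normalization lowered the first of these from 1.25 to 0.97 on the log2 scale. The differences of Kcnd2 from control were of sizes that 18.4% (high doxycycline) and 7.39% (tumor) of bright genes reached. Between tumor and high doxycycline it differed by 0.75 (1.68-fold), a size reached by 6.23% of bright genes. The other Kv4 genes had the same order of arrays with smaller differences. Kcnd3 (Kv4.3) had 778, 1235 and 1384 in that order, and its log2 difference of 0.83 for tumor against control became 1.01 with a common median. Kcnd1 (Kv4.1) had 572, 698 and 840.

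Kcna1, the Kv1.1 subunit of axons, went the other way with 771 (control), 233 (high doxycycline) and 203 (tumor). It was 3.30-fold and 3.79-fold dimmer than on control and lay near the array medians on the other arrays. Kcna3, the Kv1.3 subunit best known from T lymphocytes, had 361, 259 and 204. Kcna2, a further axonal subunit, had 363, 267 and 221 on its brighter probe set and 153, 146 and 146 on the other. Both were dimmest on tumor, by less than 2-fold. Kcna5 and Kcna6, which flank Kcna1 among the genes measured, were dim, with 179, 122 and 122 for Kcna5 and 145 on every array for Kcna6. Of the Shaw-type channels of fast-firing neurons, Kcnc4 (Kv3.4) had 348, 220 and 188, and Kcnc1 and Kcnc2 stayed between 108 and 149. Kcna4 (Kv1.4) had 47.0, 46.8 and 41.3.

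The silent subunits, which modify Kv2 channels, differed little. Of 10 measured, 3, 3 and 4 were bright in the same order of arrays, and none differed by 2-fold. Kcng2 had 713, 547 and 522, Kcng1 308, 303 and 303, and Kcns3 266, 250.2 and 250.2. Kcng1 and Kcns3 thus carried the same value on high doxycycline and tumor.

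Of the 3 Kcnq genes 1 was bright on each array, and of the 7 Kcnh genes 3, 4 and 3 were. Kcnq5 (Kv7.5), a subunit of the M current that restrains repetitive firing, had 193, 249.2 and 495. It was 2.55-fold brighter on tumor than on control, and its log2 difference of 0.99 from high doxycycline to tumor became 1.03 with a common median. Kcnq1, the subunit of the slow delayed rectifier of the heart, had 250.8, 173 and 157, and Kcnq3 stayed between 141 and 149. Kcnh1, the Eag1 channel, had 575 (control), 1275 (high doxycycline) and 2044 (tumor). The array labelled tumor was 3.55-fold above control, and high doxycycline 2.22-fold, where quantile normalization lowered 1.15 to 0.94 on the log2 scale. Kcnh2, the Erg1 channel of cardiac repolarisation, was brightest on control, with 562, 368 and 375. Kcnh4 had 531, 873 and 423, highest on high doxycycline and 2.06-fold dimmer on tumor than there. That log2 difference of -1.04 passed 2-fold narrowly and was -0.997 with a common median, -0.97 under quantile normalization and -0.94 with a pseudocount of 64. Kcnh5, a relative of Kcnh1, had 136, 247 and 212. After quantile normalization it was counted as at least 2-fold brighter on high doxycycline than on control.

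Auxiliary subunits of Kv channels were mostly dim, with 2, 3 and 2 of 12 bright on control, high doxycycline and tumor. Kcnab2, the cytoplasmic beta subunit of Kv1 channels whose start window is printed above, had 549, 2462 and 2239 in that order. Its differences of 2.16 (4.48-fold) and 2.03 (4.07-fold) from control were reached in size by 4.71% and 7.09% of bright genes. High doxycycline and tumor lay within 1.10-fold of each other. The related Kcnab1 and Kcnab3 were dim, the latter with 161 on every array. Kcnip3, a calcium sensor that binds Kv4 channels and also acts as a transcriptional repressor, had 498, 599 and 793, whereas the Kv4-binding Kcnip1, Kcnip2 and Kcnip4 lay between 70.3 and 122. Kcne2, a single-pass partner of several Kv channels, was highest on high doxycycline, with 190, 277 and 168. Kcne4, an inhibitory partner, had 227, 108 and 100.2 and was below the median on every array, so that it entered no count. Without the brightness threshold it would be counted as dimmer than control in both comparisons.

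Of 12 calcium- and sodium-activated channel genes, 6 were bright on control and 5 on each other array. Kcnn3, the small-conductance SK3 channel, had 2065 (control), 1832 (high doxycycline) and 823 (tumor). Control and high doxycycline differed by 1.13-fold. The tumor array lay 2.51-fold below control, a size that 18.9% of bright genes reached. It lay 2.22-fold below high doxycycline, a size (log2 1.15) that 2.59% of bright genes reached in that comparison. Kcnn4, the intermediate-conductance channel known from lymphocytes and red cells, had 561, 471 and 311, with the same order and no 2-fold difference. Kcnn1 and Kcnn2 carried equal values on high doxycycline and tumor. Kcnma1, the pore of the large-conductance BK channel, had 469, 667 and 444 on its brighter probe set and 89.7, 87.2 and 87.2 on the other. Of its beta subunits Kcnmb4, the neuronal one, differed most, with 1284 (control), 474 (high doxycycline) and 340 (tumor), 2.70-fold and 3.77-fold below control. Kcnmb3 had 297, 290.2 and 245, and Kcnmb1, the beta subunit of smooth muscle, was dim with 94.0, 88.2 and 89.6. Kcnmb4os2, an opposite-strand gene that overlaps Kcnmb4, had 586, 282 and 224, 2.08-fold and 2.61-fold below control. The log2 difference of -1.06 for high doxycycline became -0.91 both with a common median and with a pseudocount of 64. These overlapping genes are given as the annotation names them, and to what extent their probe sets separate the strands was not examined. Kcnmb4os1, listed between Kcnmb4 and Kcnmb4os2 by position among the genes measured, had 199, 170 and 163 and was bright on no array. Kcnd3os, the neighbour of Kcnd3, had 1064, 656 and 614 where Kcnd3 had its lowest value on control. From control to tumor it differed by -0.79 on the log2 scale, and by -1.01 after quantile normalization.

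Among the inward rectifiers 3, 1 and 1 of 15 were bright. Kcnj8, the Kir6.1 pore of the ATP-sensitive channel of pericytes and vessels, was bright throughout with 646, 569.9 and 569.9. Its partner, the sulfonylurea receptor gene Abcc9, was bright on control only (517, 144 and 139). Kcnj11 (Kir6.2) had 283, 219 and 203, beside 782, 196 and 227 for its partner receptor Abcc8. Kcnj15 (Kir4.2) had 253, 132 and 118 and was 2.13-fold dimmer on tumor than on control. On the log2 scale this was -1.09, and it was -0.90 with a common median, -0.89 after quantile normalization and -0.80 with a pseudocount of 64. Kcnj2 (Kir2.1), which sets the resting voltage of muscle, was dim on every array, with 81.4, 48.8 and 45.1. The brain and heart rectifiers Kcnj3 and Kcnj5 each carried 1 value on all 3 arrays, 151 and 100.2.

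Among the two-pore-domain channels 8, 7 and 7 of 14 were bright. Kcnk13 (THIK-1), a leak channel of microglia, had 1036 (control), 2602 (high doxycycline) and 980.2 (tumor). On high doxycycline it was 2.51-fold above control, a size that 16.5% of bright genes reached. It was 2.65-fold above tumor there (log2 1.41), a size that 1.37% of bright genes reached in that comparison. Control and tumor lay within 1.06-fold. Kcnk5 (TASK-2), an acid-sensitive channel of kidney, had 502, 1419 and 732, again highest on high doxycycline. It was 2.83-fold above control there, and tumor lay 1.94-fold below high doxycycline, just short of 2-fold. Kcnk10 (TREK-2), a stretch- and lipid-sensitive channel, had 3319, 5436 and 3603, with the same array highest by 1.64-fold over control and 1.51-fold over tumor. Kcnk6 (TWIK-2), which carries potassium efflux in macrophages, had 503 (control), 191 (high doxycycline) and 151 (tumor). It was 2.62-fold and 3.31-fold below control and lay under the median on both other arrays. The summed macrophage, endothelial, skeletal muscle and smooth muscle markers were highest on control too, and their part in this was not tested. The macrophage marker Cd14 was highest on high doxycycline instead (650, 914 and 158). Kcnk3 (TASK-1) with 1443, 1473 and 1624, and Kcnk1 (TWIK-1) with 1097, 1097 and 966, differed by at most 1.14-fold between arrays. Kcnk12 (THIK-2) had 577, 633 and 813, highest on tumor by 1.41-fold over control. Kcnk15 had 503, 344 and 328, and the remaining 6 members of the class were below the median on every array.

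**Figure D4:**
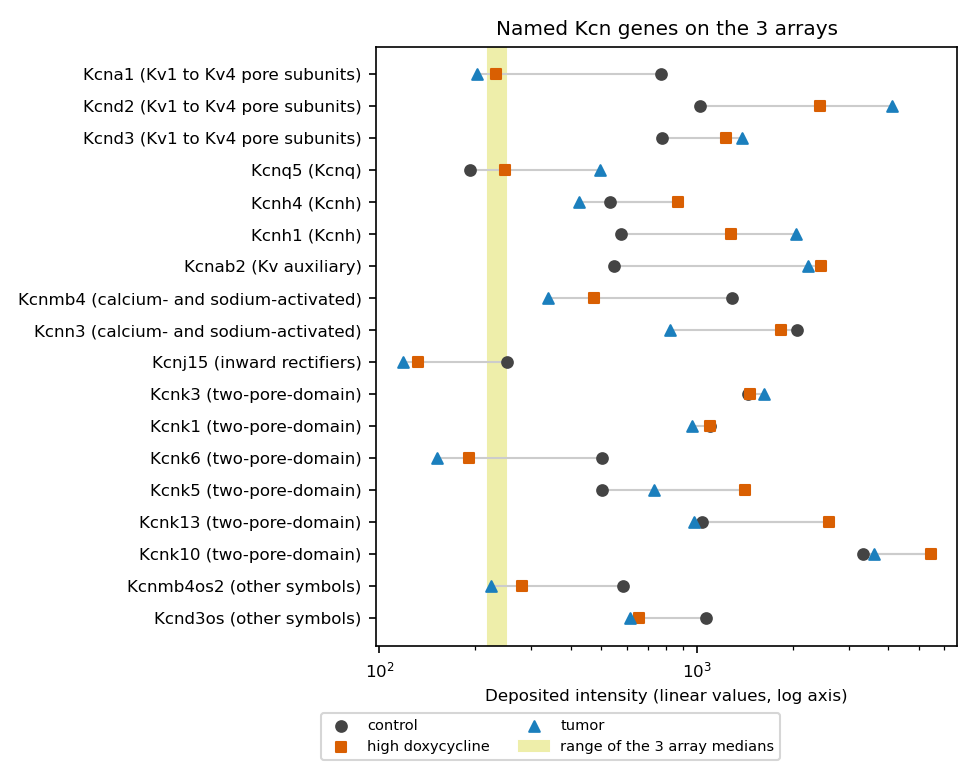
Intensities (log axis) of the 18 named Kcn genes on each array, ordered by class, with the range of the array medians as a band. Kcnd2, Kcnh1 and Kcnq5 increase from control through high doxycycline to tumor, Kcna1, Kcnmb4 and Kcnk6 decrease, and Kcnk13, Kcnk5, Kcnk10 and Kcnh4 are highest on high doxycycline.

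Sorted by the comparisons in which they differed by at least 2-fold, Kcnab2, Kcnd2 and Kcnh1 were brighter than control on both other arrays. Kcna1, Kcnmb4, Kcnmb4os2 and Kcnk6 were dimmer on both. Kcnk5 and Kcnk13 were brighter than control on high doxycycline, and from control to tumor Kcnq5 was brighter and Kcnn3 and Kcnj15 dimmer. Kcnk13, Kcnn3 and Kcnh4 were dimmer on tumor than on high doxycycline, which for Kcnh4 was the only such difference. Among these differences from control, sizes as large were reached by 4.71% (Kcnab2, high doxycycline) to 25.5% (Kcnj15, tumor) of bright genes. Passing 2-fold in one comparison and not in another was not tested as a difference.

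Genes that work with potassium channels outside the family were read from a list of partners and potassium transporters. Of 38 listed, 33 were measured. Against control, 4 of 22 bright ones were brighter and 3 dimmer on high doxycycline, and likewise 4 and 3 of 22 on tumor, with medians of 0.073 and 0.094. These are 18.2% brighter and 13.6% dimmer, where 17.5% and 8.46% of all bright genes were on high doxycycline and 18.6% and 10.2% on tumor. Brighter on both were Hcn2, a channel of the hyperpolarisation-activated current (1489, 3310 and 5975), the sodium pump subunit gene Atp1b3 (2076, 5411 and 6965) and the ubiquitin ligase gene Nedd4l (248, 1016 and 1562). Cntnap2, which clusters Kv1 channels along axons, had 185, 242 and 413. Dimmer on both were Abcc8, Abcc9 and the pump subunit gene Atp1b2 (727, 181 and 229). Lrrc52, which encodes an auxiliary subunit of Slo-type channels, had 491, 1872 and 476. It was the only one of 21 bright partners to differ by 2-fold between tumor and high doxycycline (3.93-fold dimmer on tumor, where 1.94% of all bright genes were dimmer), and its order of arrays was that of Kcnk13.

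Genes named as sodium and calcium channels or their auxiliary subunits were read in the same way. This list goes by name, and not every member need be part of a voltage-gated channel. Its Cacng genes, among them Cacng3 and Cacng7, are in the counts below. Of 39 listed 35 were measured, and on high doxycycline 5 of 20 bright ones were brighter than on control and 5 dimmer. On tumor 4 of 19 were brighter and 5 dimmer, and the median difference was 0 in both. The shares were 25% and 25% on high doxycycline and 21.1% and 26.3% on tumor, beside the same all-gene shares, and were not tested. The calcium channel subunit gene Cacna2d1 had 320.03, 1753 and 4488 on control, high doxycycline and tumor, and the neuronal sodium channel gene Scn2a 111, 394 and 831. Both increased in the order that Kcnd2 and Kcnh1 had, and both were at least 2-fold brighter on tumor than on high doxycycline. In that comparison 2 of 15 bright ones were brighter and 2 dimmer (1.6% and 1.94% of all bright genes), the dimmer ones being Cacng3 and the sensory neuron channel gene Scn10a (148, 269.7 and 116). The muscle genes Cacna1s (287, 138 and 111) and Cacng1 (639.9, 205 and 193) were brightest on control. So was Scn7a, a sodium channel gene of glia and muscle, with 402, 39.2 and 39.5. Cacng3 (1729, 4413 and 1877) was highest on high doxycycline.

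Equal deposited values were frequent over all genes, and among Kcn genes they were mostly those of dim ones. On high doxycycline and tumor 29 of 92 (31.5%) carried exactly the same intensity, against 34.1% of all genes, and 3 of these were bright (Kcng1, Kcnj8 and Kcns3). For high doxycycline and control the number was 13 (14.1%, against 20.1% of all genes), of which Kcnk1 alone was bright. For tumor and control it was 8 (8.70%, against 15.4%). All 3 values were equal for 7 genes (7.61%, against 13.8% of all), Kcna6, Kcnab3, Kcnh8, Kcnip2, Kcnj3, Kcnj5 and Kcnmb2. For these genes a difference of 0 is a property of the deposited table.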

How the data were processed

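The labels name total RNA, biotin and the MoGene-1_0-st-v1 array, with 1 array per group. Deposited intensities are linear, with 1 value per probe set. Their background correction, summarisation and normalization by the authors are not given in the sources used here. Names came from the platform annotation, in which 21789 of 28856 probe sets have 1 symbol, 1621 several and 5446 none, and only the first were used. All 92 Kcn genes were found by Entrez number in the RefSeq table (GRCm38.p6). Where a gene had several probe sets (3 Kcn genes), the one with the highest mean was used. Log2 values were taken after adding 1. Coordinates are printed only for RefSeq windows.

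Named genes are all Kcn genes that were bright and differed by at least 2-fold in any comparison, plus the 8 highest intensities per array. Other members and the partner and channel genes were added by class or chosen after their values were seen. The members, lists and rules were chosen with earlier results of these data known. Alternatives were a common median, quantile normalization, percentile 75, no brightness threshold, pseudocounts of 16 and 64, the mean of probe sets, genes with a single probe set, and leaving out equal values. A planned search of protein sequences for the pore signature was not run. Python 3.11.15, numpy 2.4.6, pandas 2.3.3 and matplotlib 3.10.9 were used.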

Additional observations from a re-analysis of the deposited data

How the results depend on the processing

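With 1 array per group no replicate could be left out, and no paired analysis was possible because no group has a second sample. Above percentile 75 of each array, 10, 11 and 8 of 92 Kcn genes were bright on control, high doxycycline and tumor. Of all 19938 genes, 5406, 5516 and 5559 were. That threshold counted 14 Kcn genes for high doxycycline against control, of which 2 were dimmer (8.77% of all genes counted). The brighter ones stayed Kcnab2, Kcnd2, Kcnh1, Kcnk13 and Kcnk5 (22.9% of all were brighter). For tumor against control it counted 12, with 3 dimmer (10.4% of all) and Kcnab2, Kcnd2 and Kcnh1 brighter (24.0% of all). The Kcn medians were 0.69 and 0.019, where the values reported were negative, against 0.29 and 0.27 over all genes counted. With a common median the high doxycycline against control median was 0.080 (0.22 over all genes). There 1 of 33 bright Kcn genes (Kcnq5) was brighter on tumor than on high doxycycline, where 1.76% of all were. The tumor against high doxycycline median was -0.020 without a brightness threshold and -0.19 without equal values. For the scaling choices, the shift added to every difference accounts for the moves under a common median, and the cause of the others was not tested. Every other count stayed within 1.5 times its reported value, and no named gene that differed by at least 2-fold changed direction under any of these alternatives. The genes whose 2-fold count starts or ends under an alternative are named in the report, so counts that stayed alike need not hold the same genes. The number of arrays is what limits precision here, and dim genes near the lowest intensities can show little difference.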
